A study of Mus musculus with 6 samples.

Results

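The genes described here are 7 matrix metalloproteinases (Mmp2, Mmp8, Mmp9, Mmp12, Mmp13, Mmp14 and Mmp19) and 3 of their tissue inhibitors (Timp1, Timp2 and Timp3) in alveolar macrophages, the resident phagocytes of the lung airspaces. They were chosen by symbol, with earlier results of these data known, and make up 10 of the 46078 gene rows of the deposited table. Polyadenylated RNA was sequenced from alveolar macrophages sorted from the lungs of untreated mice, with 3 libraries in each of 2 groups. Control mice were Car4fl/fl, carrying loxP-flanked alleles of Car4, the gene of the membrane-anchored carbonic anhydrase 4. The other group, Car4fl/fl-CD11cCre, had these alleles together with CD11cCre, a Cre recombinase under the control of CD11c (the integrin gene Itgax), which is active in alveolar macrophages and also in dendritic cells. Its libraries are called Cre libraries below, with the numbers of their labels. Mice with the Cre and unfloxed Car4 were not among the groups, so the Cre transgene and the deletion cannot be told apart. Strain, age and sex were not used here.

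Matrix metalloproteinases are zinc-dependent enzymes that cut collagens, elastin, gelatin and many cell surface proteins. Most are secreted, or held at the membrane, as inactive proenzymes that are opened by other proteases, and the Timp proteins occupy the active site of the opened enzyme. In the lung, macrophages are a main source of Mmp12, the macrophage elastase, which is known for its part in elastin breakdown and emphysema in mice. Transcript levels do not measure the amount or the activity of the enzymes.

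Mmp12, Mmp13 and Mmp8 lie in 1 gene cluster. The cluster spans chr9:7272514-7699585 of GRCm38, a stretch of 427 kb that holds 10 rows of the family, namely Mmp13, Mmp12, Mmp1b, Mmp3, Mmp1a, Mmp10, Mmp8, Mmp27, Mmp20 and Mmp7. Mmp12 and Mmp13 had their highest values in the same Cre library and Mmp8 did not, so the 150 bases before their annotated starts are shown for comparison (RefSeq, build GRCm38.p6, plus strand, 5′ to 3′). Capitals mark the AP-1 letters TGAGTCA or their reverse complement TGACTCA, and the TATA letters TATAAA.
Mmp12, start at 7347374 (chr9:7347224-7347373): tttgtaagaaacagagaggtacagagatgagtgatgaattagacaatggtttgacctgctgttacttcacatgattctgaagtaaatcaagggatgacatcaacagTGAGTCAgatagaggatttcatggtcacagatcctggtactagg
Mmp12, start at 7344397 (chr9:7344247-7344396): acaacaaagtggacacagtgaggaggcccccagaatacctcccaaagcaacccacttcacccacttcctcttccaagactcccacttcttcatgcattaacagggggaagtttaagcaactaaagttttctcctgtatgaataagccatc
Mmp13, start at 7272514 (chr9:7272364-7272513): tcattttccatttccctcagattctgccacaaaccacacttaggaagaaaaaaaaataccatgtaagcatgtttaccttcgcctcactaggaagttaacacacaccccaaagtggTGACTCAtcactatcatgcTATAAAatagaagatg
Mmp8, start at 7558429 (chr9:7558279-7558428): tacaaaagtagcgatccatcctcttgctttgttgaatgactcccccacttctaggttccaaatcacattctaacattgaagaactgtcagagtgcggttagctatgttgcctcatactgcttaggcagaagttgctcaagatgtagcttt
AP-1, the dimer of Fos and Jun proteins, is a known regulator of metalloproteinase promoters. Its letters began 44 bases before the Mmp12 start at 7347374 and 35 bases before the Mmp13 start, and the TATA letters began 16 bases before the Mmp13 start. They were searched on both strands of the 250 bases before each start. RefSeq entries matched 7 of the 10 genes, with 8 starts, and Mmp2, Mmp9 and Mmp19 did not match. The AP-1 letters stood in 2 of the 8 windows, against 4.46% of all 32851 windows. The windows of Mmp14 and Timp1, whose sequences are not shown, held 0 matches to them. Mmp14 also lay above all controls in every Cre library, and Timp1, like Mmp12 and Mmp13, was highest in Cre library 3. A part of AP-1 in these values was not tested. TATAAA stood in 1 of 8 against 12.4%, and AGGAAG, the core of PEA3 and other Ets sites, in 6 of 8 against 29.5%. A match is a description of the letters, and counts per gene do not tell which Mmp12 start was used.

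Depth ranged from 53824475 to 65443314 counts per library. Values are CPM, counts scaled to library size with TMM factors, and 3 counts in a library correspond to 0.0465 to 0.0557 CPM. Car4 was at 499, 385 and 270 CPM in control libraries 1, 2 and 3 and at 40.2, 46.9 and 36.3 CPM in Cre libraries 1, 2 and 3 (log2 fold change -3.23 ± 0.22 (SE), adjusted p 0.0047 in edgeR's quasi-likelihood test). All 12 alveolar macrophage markers on the list, such as Siglecf, Marco, Fabp4 and Pparg, reached 1 CPM in every library. Their levels were not all alike in the 2 groups. All Cre values lay above all control values for 4 (Marco, Chil3, Itgax and Mrc1), against 8.63% of tested genes. They lay below for 3 (Siglecf, Cidec and Car4), against 9.22%. Siglecf was at 663 to 752 CPM in the controls and at 464 to 592 CPM in the Cre libraries, and Marco at 280 to 311 and 393 to 505 CPM. On the first principal component of the tested genes, with 47% of the variance, the controls lay between -29.7 and -22.5, Cre library 1 at 0.44 and Cre libraries 2 and 3 at 39.8 and 39.4. The values of the 10 genes are therefore given for each library, and their fits with and without Cre library 1.

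Control alveolar macrophages held transcripts of Mmp19, Timp2 and Mmp8 at levels far above those of the other 7 genes. Per kilobase of exon, the mean control levels were 56.4 ± 4.06 (SD, n = 3) CPM per kb for Mmp19, 25.9 ± 8.84 for Timp2 and 13.9 ± 3.39 for Mmp8. Mmp12 followed at 0.814 ± 0.249 CPM per kb and Timp1 at 0.678 ± 0.27. Mmp2, Mmp9, Timp3 and Mmp14 lay between 0.143 and 0.215 CPM per kb, and Mmp13 was lowest at 0.023 ± 0.0127. The ranges of the 3 control libraries overlapped between Timp2 and Mmp8, between Mmp12 and Timp1, between Mmp2 and Mmp9 and between Timp3 and Mmp14. Between the other neighbours in this order they did not overlap.

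In the Cre libraries Mmp12 moved from rank 4 to rank 2, at a mean of 32.3 ± 40.2 CPM per kb, between Mmp19 at 66.7 ± 4.13 and Timp2 at 23.9 ± 6.72. Its 3 libraries ranged from 3.3 to 78.2 CPM per kb and so overlapped both neighbours. Mmp14 moved from rank 9 to rank 5, at 3.21 ± 2.48 CPM per kb. The length matters for these levels: over its longest coding transcript, a length chosen after seeing the data, Mmp12 stood at 1.63 and 64.8 CPM per kb in the 2 groups and Mmp14 at 0.264 and 5.92. With that length Mmp14 was already at rank 6 in the controls, and the order of Mmp2, Mmp9, Timp3 and Mmp14 was different.

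**Figure D1:**
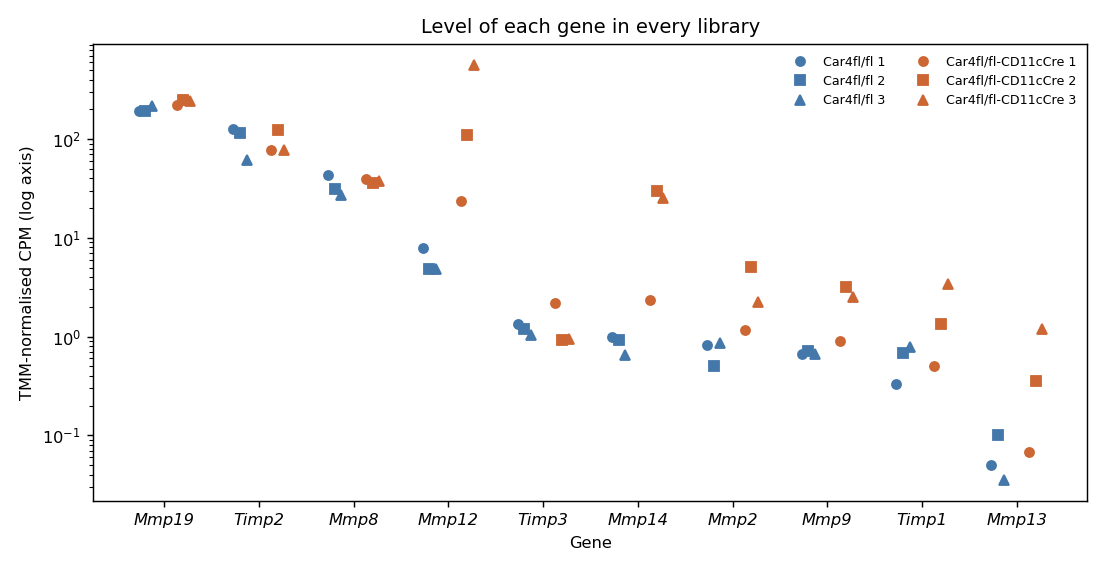
TMM-normalised CPM on a log axis for each of the 10 genes, with 1 point per library (blue for the 3 Car4fl/fl and orange for the 3 Car4fl/fl-CD11cCre libraries, shapes for the library number). Mmp19, Timp2 and Mmp8 are the 3 highest genes of the controls, whereas Mmp12 runs from 4.84 CPM in a control to 566 CPM in Cre library 3.

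Mmp12, Mmp14, Mmp2 and Mmp9 were low in control macrophages and above all controls in each of the 3 Cre libraries, by amounts that differed widely between the Cre libraries. Mmp19 also lay above the controls in every Cre library, by a small amount. Of the 10 genes 9 passed the filter on low counts, and none passed edgeR's threshold of an adjusted p under 0.05 over all genes, against 0.0132% of the 15147 tested genes in either direction. At an unadjusted p under 0.05, 6 of the 9 were higher and 0 lower, where 6.54% of all tested genes were higher and 6.28% lower. The Cre libraries all lay above the controls for 5 of the 9 and all below them for 0, against 8.63% and 9.22% of tested genes. The median log2 fold change was 1.54 over the 9 and -0.0019 over all tested genes. Since the genes were chosen with earlier results of these data known, the comparisons with all genes are descriptions and no independent support. DESeq2 called 5 of the 9 higher (2.32% of all genes), and edgeR with no filter on low counts called 4 of the 10 (1.23%). In this design of 3 against 3 the smallest p of an exact permutation test of 1 gene is 0.1. The libraries are from bulk sorted cells, in which more expressing cells and more RNA per cell cannot be told apart.

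Mmp12 was at 7.97, 4.85 and 4.84 CPM in control libraries 1, 2 and 3 and at 23.9, 111 and 566 CPM in Cre libraries 1, 2 and 3. Cre library 1 stood 4.05 times, Cre library 2 18.9 times and Cre library 3 96.1 times over the control mean, and the groups did not overlap. The fitted log2 fold change was 5.31 ± 1.09 (SE), a 39.6-fold difference, with an adjusted p of 0.149 in edgeR. The highest Cre value was 23.7 times the lowest, and the highest control value 1.65 times the lowest. Only 18 of the 15147 tested genes had a wider range of log2 CPM over the 3 Cre libraries. Mmp12 was chosen with earlier results of these data known, so this rank is a description. Mmp12 (ENSMUSG00000049723) lies on the plus strand at chr9:7344381-7369499 and shares 157 exon bases with Mmp1b on the other strand, which had 6 counts in Cre library 3 and 0 elsewhere. Without Cre library 3 the log2 fold change was 3.52 (adjusted p 0.211 in edgeR), and without Cre library 1 it was 5.84 (adjusted p 0.0085).

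The make-up of metalloproteinase transcripts also differed between libraries. Of all counts in the 24 Mmp rows, Mmp12 made up 3.23% (95% Wilson interval 2.96 to 3.52), 2.09% (1.86 to 2.34) and 1.91% (1.7 to 2.14) in the 3 controls. In Cre libraries 1, 2 and 3 it made up 8.17% (7.78 to 8.59), 25.6% (25.1 to 26.1) and 64.3% (63.9 to 64.7). The share of Mmp19 was 77.1 to 85% in the controls and 75.1, 56.6 and 27.5% in the Cre libraries. That of Mmp8 was 10.7 to 17.4% in the controls and 13.6, 8.22 and 4.23% in the Cre libraries. These intervals cover counting error only.

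**Figure D2:**
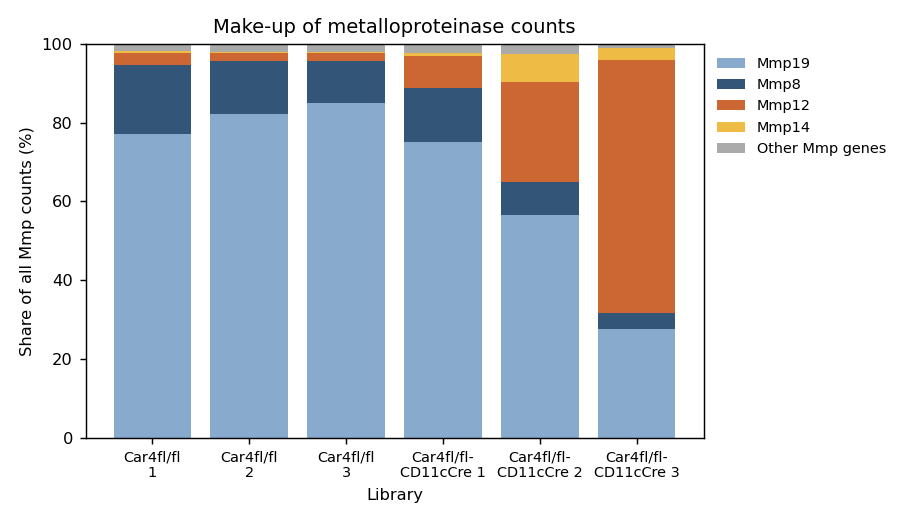
Share of all Mmp counts in percent (y axis, from 0 to 100) taken by Mmp19, Mmp8, Mmp12, Mmp14 and the remaining Mmp genes in each of the 6 libraries. Mmp19 takes at least 77.1% in each control, and Mmp12 takes 64.3% in Cre library 3.

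Mmp13, collagenase 3, which cuts fibrillar collagen, was near the limit of detection and did not pass the filter. It had 3, 6 and 2 counts in control libraries 1, 2 and 3 and 4, 23 and 64 counts in Cre libraries 1, 2 and 3. The exact Poisson 95% interval was 1.09 to 10.2 for the 4 counts of Cre library 1, 14.6 to 34.5 for the 23 of Cre library 2 and 49.3 to 81.7 for the 64 of Cre library 3. Cre library 1 was therefore within the counting error of the controls, while the other two lay above the highest control interval, which ended at 13.1. With no filter on low counts its log2 fold change was 3.06 ± 0.79 (SE) at an adjusted p of 0.0617 in edgeR. Mmp13 (ENSMUSG00000050578, chr9:7272514-7283331, plus strand) thus shared with Mmp12 the order of the 3 Cre libraries.

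Mmp8, also called neutrophil collagenase, cuts fibrillar collagen too and lies in the same cluster. It was at 43, 30.9 and 27.3 CPM in the controls and at 39.8, 35.8 and 37.3 CPM in the Cre libraries. The groups overlapped, and the log2 fold change was 0.16 ± 0.15 (SE) at an adjusted p of 0.746 in edgeR. Without Cre library 1 it was 0.11 (adjusted p 0.851). Of the 13 neutrophil markers 7 passed the filter, and all 7 had log2 fold changes above 0 (median 0.53), as had 7482 of the 15147 tested genes. Of these 7 markers 1 had all Cre values above all control values (8.63% of tested genes). Among those present, S100a8 was at 3.22 to 4.69 CPM in the controls and at 2.86, 9.47 and 4.14 CPM in the Cre libraries, and Csf3r at 39.1 to 44.6 CPM and at 56.9, 38.8 and 50.9 CPM. Of the defining markers of mature and immature neutrophils, Ly6g was at 0 counts in every library, and Elane and Mpo were at or under 0.0352 CPM. The part of such cells in the Mmp8 values was not tested. Mmp8 (ENSMUSG00000005800) lies at chr9:7558456-7568485 on the plus strand.

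Mmp14, a membrane-anchored enzyme that cuts collagen at the cell surface and opens the Mmp2 proenzyme, was at 0.996, 0.914 and 0.651 CPM in the controls. It was at 2.33, 29.9 and 25.2 CPM in Cre libraries 1, 2 and 3. Cre library 1 stood 2.73 times over the control mean and Cre libraries 2 and 3 stood 35.1 and 29.5 times over it, with no overlap between the groups. The log2 fold change was 4.48 ± 0.86 (SE), a 22.3-fold difference, with an adjusted p of 0.146 in edgeR. Unlike Mmp12, Mmp14 was at similar values in Cre libraries 2 and 3. Without Cre library 1, the one nearest to the controls, the log2 fold change was 5.0 ± 0.17 (SE) and the adjusted p 0.000115 in edgeR. Without Cre library 2 it was 4.0 (adjusted p 0.222) and without Cre library 3 it was 4.24 (adjusted p 0.236). Mmp14 (ENSMUSG00000000957) lies on the plus strand at chr14:54431612-54445364.

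The gelatinases Mmp2 and Mmp9, which cut denatured collagen and basement membrane collagen, stayed at a few CPM or less in all libraries. Mmp2 was at 0.814, 0.499 and 0.862 CPM in the controls and at 1.17, 5.1 and 2.25 CPM in the Cre libraries (log2 fold change 1.97 ± 0.52 (SE), adjusted p 0.187 in edgeR). Mmp9 was at 0.664, 0.715 and 0.669 CPM in the controls and at 0.896, 3.18 and 2.49 CPM in the Cre libraries (log2 fold change 1.68 ± 0.43 (SE), adjusted p 0.185). For both genes every Cre library lay above every control, Cre library 1 was nearest to the controls and Cre library 2 was highest. The controls of Mmp9 had a coefficient of variation of 4.12%, the smallest among the 10 genes. Without Cre library 1 the log2 fold change was 2.34 for Mmp2 and 2.05 for Mmp9, with adjusted p of 0.0363 and 0.00632 in edgeR. Without Cre library 2 it was 1.23 for Mmp2 and 1.3 for Mmp9, with adjusted p of 0.344 and 0.376. Mmp2 (ENSMUSG00000031740) lies at chr8:92827291-92853420 and Mmp9 (ENSMUSG00000017737) at chr2:164940780-164955850, both on the plus strand.

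Mmp19, a secreted enzyme that acts on basement membrane proteins and holds most metalloproteinase counts of control macrophages, was nearly constant. It was at 190, 192 and 216 CPM in the controls and at 219, 246 and 242 CPM in the Cre libraries. All Cre values lay above all control values, with only a narrow gap between control library 3 and Cre library 1. The log2 fold change was 0.24 ± 0.07 (SE), a 1.18-fold difference, with an adjusted p of 0.228 in edgeR, and without Cre library 1 it was 0.29 (adjusted p 0.137). Mmp19 (ENSMUSG00000025355, chr10:128790910-128800824, plus strand) shares 22.3% of its exon bases with Tmem198b on the other strand. Tmem198b had 586 to 832 counts per library against 11474 to 15891 for Mmp19, and whether strand was used in counting is not stated in the labels.

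**Figure D3:**
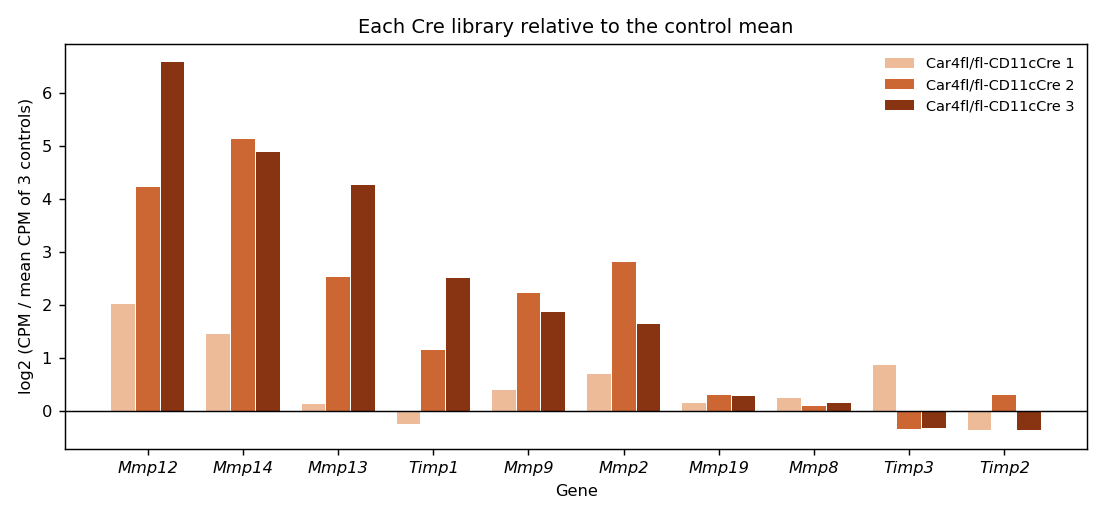
Bars show log2 of the CPM in each Cre library over the mean of the 3 controls, with 3 bars per gene for Cre libraries 1, 2 and 3. Mmp12 and Mmp14 have the highest bars, Cre library 1 has the lowest of the 3 bars for 7 of the 10 genes, and the bars of Mmp19, Mmp8 and Timp2 stay near 0.

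The inhibitors differed from each other. Timp1, a secreted inhibitor that many cells induce during inflammation and repair, was at 0.332, 0.682 and 0.792 CPM in the controls and at 0.507, 1.33 and 3.44 CPM in the Cre libraries. Cre library 1 lay within the controls and the other two above them, and the log2 fold change was 1.54 ± 0.65 (SE) at an adjusted p of 0.382 in edgeR. Without Cre library 3 it was 0.62 (adjusted p 0.781) and without Cre library 1 it was 1.97 (adjusted p 0.113). Timp1 (ENSMUSG00000001131, chrX:20870166-20874735, plus strand) lies within Syn1 on the other strand and shares 0 exon bases with it.

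Timp2, the most abundant of the 3 inhibitors, blocks most metalloproteinases and also links Mmp14 to the Mmp2 proenzyme at the cell surface. It was at 125, 116 and 61.3 CPM in the controls and at 78.3, 123 and 77.7 CPM in the Cre libraries. The Cre range lay within the control range, with control library 3 lowest of all, and the log2 fold change was -0.11 ± 0.28 (SE) at an adjusted p of 0.916 in edgeR. Without Cre library 1 it was -0.0075 (adjusted p 0.997). Timp2 (ENSMUSG00000017466) lies on the minus strand at chr11:118301069-118355740.

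Timp3, an inhibitor that stays bound to the matrix and also blocks ADAM enzymes such as Adam17, was at 1.33, 1.18 and 1.04 CPM in the controls. It was at 2.16, 0.93 and 0.947 CPM in Cre libraries 1, 2 and 3 (log2 fold change 0.19 ± 0.35 (SE), adjusted p 0.883 in edgeR). Cre library 1 was the highest of the 6 and the other two Cre libraries were the lowest, so the sign was that of Cre library 1 alone, and without it the log2 fold change was -0.34 (adjusted p 0.595). Surfactant genes of alveolar type 2 cells were highest in the same library: Sftpc was at 38.7 to 46.9 CPM in the controls and at 75.4, 40.4 and 46.9 CPM in Cre libraries 1, 2 and 3. Of the 10 endothelial markers 6 (Kdr, Cldn5, Tek, Egfl7, Tie1 and Ramp2) were, like Timp3, highest in Cre library 1 and below all controls in Cre libraries 2 and 3, a pattern found in 1.68% of tested genes and looked for after seeing the values. Pecam1, Cdh5, Emcn and Vwf did not have it. Vwf, the most abundant of the 10, lay above all controls in every Cre library and was highest in Cre library 2, at 152, 179 and 153 CPM. Tie1, an endothelial receptor gene, was at 1.48 to 1.68 CPM in the controls and at 2.98, 1.18 and 1.02 CPM in the Cre libraries. The part of these cells in the Timp3 values was not tested. Timp3 (ENSMUSG00000020044, chr10:86300372-86349506, plus strand) shares 21.3% of its exon bases with Syn3 on the other strand, which had 18 to 35 counts per library against 51 to 128 for Timp3.

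Summed per kilobase over the 7 enzymes, the level was at 68.2 to 73.6 CPM per kb in the controls and at 82.7, 107 and 168 CPM per kb in Cre libraries 1, 2 and 3. Without Mmp12 the sums were 67.5 to 72.9 in the controls and 79.5, 92 and 89.9 CPM per kb in the Cre libraries. The 3 inhibitors summed to 32.7, 30.6 and 16.8 CPM per kb in the controls and to 20.9, 33.3 and 23.9 CPM per kb in the Cre libraries. The ratio of enzymes to inhibitors was 2.25, 2.23 and 4.39 in the controls and 3.96, 3.23 and 7.02 in the Cre libraries. It therefore overlapped between the groups, with control library 3, the library of lowest Timp2, above Cre libraries 1 and 2. The sums are over the union of annotated exons and are transcript levels, with no test.

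The order of the Cre libraries separated the genes further. Mmp12, Mmp13 and Timp1 were highest in Cre library 3. Mmp2, Mmp9, Mmp14, Mmp19 and Timp2 were highest in Cre library 2, and Mmp8 and Timp3 in Cre library 1. Cre library 1 was the lowest of the 3 for 7 of the 10 genes, and for 32.2% of all tested genes. Over Cre libraries 2 and 3 only, a count added after seeing the data, 7 of the 10 genes lay above all controls, against 15.5% of tested genes. Without Cre library 1 edgeR called 4 of the genes higher (Mmp2, Mmp9, Mmp12 and Mmp14), where it called 1.59% of all genes tested higher. Cre library 1 was the Cre library nearest to the controls on the first principal component. With any other single library left out, edgeR called 0 of the genes.

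**Figure D4:**
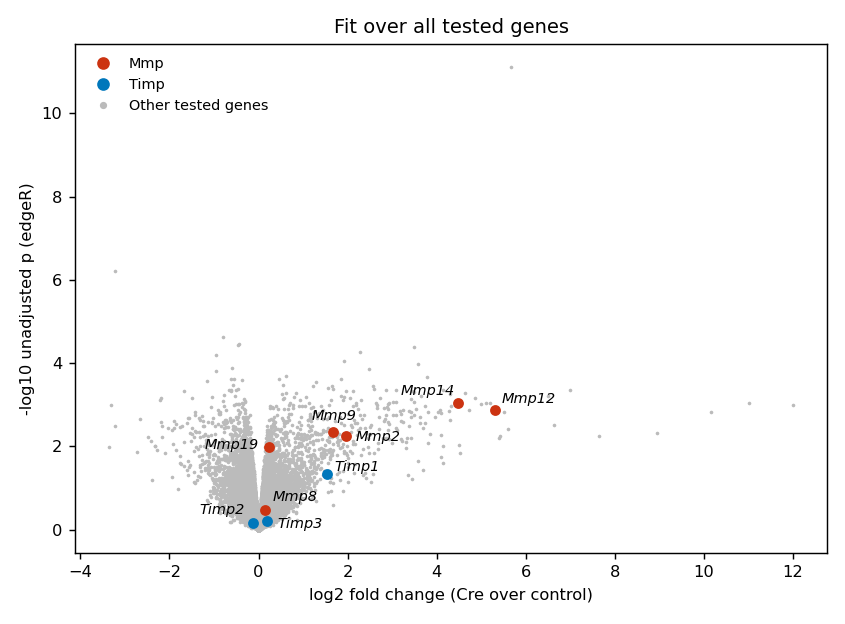
Each point is 1 of the 15147 tested genes, with the log2 fold change of Cre over control libraries on the x axis and -log10 of the unadjusted edgeR p on the y axis (red for Mmp genes, blue for Timp genes). Mmp12 and Mmp14 lie far to the right at log2 fold changes of 5.31 and 4.48, and none of the labelled genes passes an adjusted p of 0.05.

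Transcripts of interstitial macrophage markers were higher in the same Cre libraries as Mmp12, Mmp13 and Mmp14. The 12 markers summed to 13.8 to 17 CPM in the controls and to 22.2, 56.6 and 99.6 CPM in Cre libraries 1, 2 and 3. All 12 passed the filter and edgeR called 0 of them. All Cre values lay above all control values for 7 and below them for 1 (Cd163), against 8.63% and 9.22% of tested genes, and Folr2 and Tmem119 were under 1 CPM in every library. C1qa, a chain of complement C1q, was at 0.681 to 1.01 CPM in the controls and at 1.88, 12.4 and 18.2 CPM in the Cre libraries. Folr2 had this order of Cre libraries, at 0.101, 0.294 and 0.409 CPM, but was at 0.334 to 0.416 CPM in the controls. Lyve1 and Cd163 did not share the order, at 1.84, 0.496 and 0.724 CPM and at 0.423, 0.201 and 0.297 CPM. Cx3cr1 and Stab1 were highest in Cre library 2, at 1.13, 1.89 and 1.3 CPM and at 2.21, 2.7 and 2.62 CPM. The part of such cells in the metalloproteinase values was not tested.

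Of the markers of other cells, those of lymphocytes, dendritic cells and monocytes also summed to their lowest Cre value in Cre library 1 and their highest in Cre library 3. The alveolar macrophage markers had this order too. They summed to 23750 to 27150 CPM in the controls and to 28930, 37540 and 42530 CPM in Cre libraries 1, 2 and 3, most of it from Chil3. The 13 neutrophil markers summed to 53.1 to 59.5 CPM in the controls and to 67.9 to 71.5 CPM in the Cre libraries, and 8 of them were under 1 CPM in every library. The 12 fibroblast markers summed to 188 to 229 and 183 to 199 CPM, most of it from Gsn, and Col1a1 was at 2.26, 2.73 and 6.93 CPM in the controls and at 6.36, 1.6 and 5.09 CPM in the Cre libraries. Endothelial markers summed to 137 to 158 and 171 to 196 CPM, most of it from Vwf at 117 to 136 and 152 to 179 CPM. Epithelial markers summed to 271 to 355 and 241 to 308 CPM. Of these, Epcam was at 156, 129 and 55.1 CPM in the controls and at 35.4, 16 and 22.6 CPM in the Cre libraries, and Cdh1 at 105 to 118 and 133 to 156 CPM. The 12 lymphocyte markers summed to 10.3 to 12.4 CPM in the controls and to 10.9, 20.7 and 42.2 CPM in the Cre libraries. Of its 10 tested genes 9 were above control, against 7482 of all 15147 tested genes. For 4 of the list, Cd3e, Cd4 and Cd8a among them, all Cre values lay above all control values (8.63% of tested genes). Jchain, a plasma cell gene, was at 2.77, 5.92 and 2.69 CPM in the controls and at 2.77, 8.37 and 27.5 CPM in the Cre libraries. Cd4, a gene of helper T cells that some macrophages also express, was at 0.158 to 0.299 CPM in the controls and at 0.338, 2.77 and 2.47 CPM in the Cre libraries, near the order of Mmp14. Dendritic cell markers summed to 24.3 to 34.6 CPM in the controls and to 23.8, 31.3 and 39.2 CPM in Cre libraries 1, 2 and 3. The 10 monocyte markers summed to 17200 to 20420 CPM in the controls and to 20840, 30420 and 35510 CPM in the Cre libraries. Most of it came from Chil3, which alveolar macrophages also express, and Ly6c2 was at most at 0.836 CPM. Of the 10 eosinophil, basophil and mast cell markers 9 were under 1 CPM in every library, and the list summed to 1 to 1.43 CPM in the controls and to 0.93 to 2.04 CPM in the Cre libraries. The part of these cells in the values of the 10 genes was not tested.

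**Figure D5:**
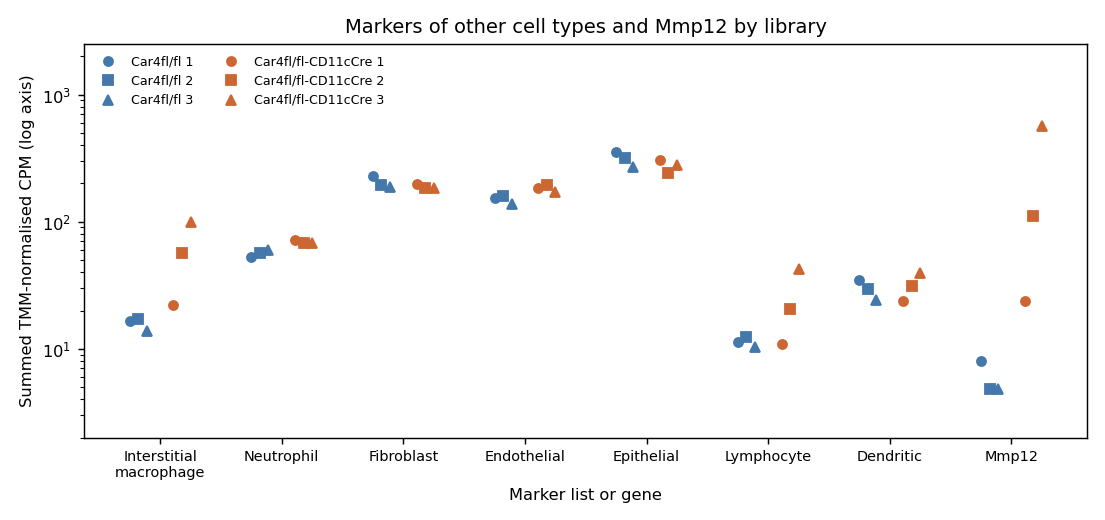
Summed TMM-normalised CPM on a log axis for 7 lists of markers of other cell types, and Mmp12 for comparison, with 1 point per library (blue Car4fl/fl, orange Car4fl/fl-CD11cCre, shapes for the library number). The interstitial macrophage sum lies at 22.2, 56.6 and 99.6 CPM in Cre libraries 1, 2 and 3, in the same order as Mmp12. The lymphocyte and dendritic cell sums have this order too.

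The genes whose values over the 6 libraries were most like those of Mmp12 were searched among the 10752 other genes whose mean over all 6 reached 1 CPM. Genes under 1 CPM in every control, such as Tmem26, Pla2g2d and Slamf7, reached this mean only through their Cre libraries. The search therefore favoured genes high in the Cre libraries over genes low in both groups. Likeness was the root mean square difference of log2 CPM after centring each gene on its own mean. Among the 8 nearest were Tmem26 at 0.64, Kcnn4 at 0.65, C1qb at 0.73, Slamf7 at 0.74, Pla2g2d at 0.74, Mmp14 at 0.81 and C1qa at 0.86. Kcnn4, a calcium-activated potassium channel gene, was at 0.498, 0.216 and 0.317 CPM in the controls and at 0.795, 4.86 and 10.6 CPM in the Cre libraries. Tmem26 was at 0.0352 to 0.0996 CPM in the controls and at 0.338, 0.589 and 8.86 CPM in the Cre libraries. Even the nearest gene, at 0.64, was farther away than the nearest gene of any other tested member (0.02 to 0.36). These distances describe 6 libraries and carry no test.

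The genes nearest to Mmp14 were Slamf7 at a distance of 0.28, the heparanase gene Hpse at 0.35 and the secreted kinase gene Fam20c at 0.41. Slamf7 and Hpse were under 1 CPM in every control, so they too entered the search only through their Cre libraries. For Mmp2 they were Pkdcc, Ptgs1 and Aldh1a2 (0.2 to 0.25), and for Mmp9 Prkcb, Adgre5 and Ablim1 (0.155 to 0.174). Timp1 was nearest to Apoe, the apolipoprotein E gene, at 0.36, which was at 87.3 to 106 CPM in the controls and at 97.3, 250.3 and 505 CPM in the Cre libraries. The next for Timp1 were Il31ra at 0.38 and Hspa1b at 0.39. Timp3 was nearest to the water channel gene Aqp1, the surfactant protein gene Sftpb and the tight junction gene Tjp1, at 0.13 to 0.15. Of the 3 genes highest in the controls, Mmp19 was nearest to Ubfd1, Haus8 and Pml (0.02) and Mmp8 to Tnfrsf26, Cenpu and Fah (0.08 to 0.09). The third, Timp2, was nearest to Ttc12, Clec4e and Bdh1 (0.14 to 0.15). Within the 9 tested genes the smallest distance, at 0.26, was that between Mmp8 and Mmp19, followed among the low genes by Mmp2 and Mmp9 at 0.38.

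The other members of the family were at low levels. Of 17 further Mmp and Timp genes 5 passed the filter. Of these, edgeR called 0 (0.0132% of all tested genes) and DESeq2 0 (2.32% higher and 1.46% lower). At an unadjusted edgeR p under 0.05 there were 0 of the 5, against 6.54% of tested genes higher and 6.28% lower. The groups did not overlap for 0 of the 5, against 8.63% higher and 9.22% lower. With 5 genes, counts of 0 are near these shares. Mmp15, a membrane-type enzyme, was at 0.894 ± 0.365 CPM (SD, n = 3) in controls and 0.806 ± 0.385 CPM with Cre, Mmp23 at 0.757 ± 0.205 and 0.775 ± 0.125 CPM, and Mmp25, a membrane-anchored enzyme, at 0.736 ± 0.222 and 0.802 ± 0.144 CPM. Mmp17 was at 0.278 ± 0.0867 and 0.326 ± 0.0289 CPM and Mmp11 at 0.188 ± 0.0848 and 0.309 ± 0.107 CPM. Mmp1a and Mmp7 had 0 counts in all 6 libraries, which allows up to 0.0557 CPM in the shallowest.

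Genes around the metalloproteinase pathway were measured from lists of activators, other inhibitors, ADAM enzymes, clearance receptors, regulators and matrix substrates, and edgeR called 0 of their 64 tested members. At an unadjusted p under 0.05, 6 of the 64 were higher and 8 lower, where 6.54% of all tested genes were higher and 6.28% lower. DESeq2 called 2 higher (Lamc1 and Mfge8) and 3 lower (Slpi, Vcan and Bhlhe40), against 2.32% and 1.46% of all genes. For comparison with the lists, 7482 of all 15147 tested genes were above and 7665 below control. Of 9 tested genes for activating or binding proteins 3 were above and 6 below control, and the median log2 fold change was -0.02. The hyaluronan receptor gene Cd44, whose product binds Mmp9, was at 2628 ± 125 and 2586 ± 41.1 CPM, and Furin, the protease that opens the Mmp14 proenzyme, at 610 ± 40.8 and 597 ± 21.5 CPM. Hpn and Lcn2 were at 5.15 ± 1.08 and 4.1 ± 0.238 CPM and at 0.554 ± 0.0481 and 1.05 ± 0.922 CPM, and the Cre values of Lcn2 were 0.727, 2.09 and 0.334 CPM.

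Other protease inhibitors were above control for 1 and below for 8 of 9 tested genes, and the median log2 fold change was -0.2. Slpi, an inhibitor of serine elastases, was at 285, 233 and 186 CPM in the controls and at 162, 178 and 145 CPM in the Cre libraries (log2 fold change -0.53 ± 0.15 (SE), adjusted p 0.203 in edgeR). Wfdc17 was the gene above control, at 7.71 to 10.1 CPM in the controls and at 10.7, 36.7 and 21.4 CPM in the Cre libraries. The groups did not overlap for either gene. Of the 9 genes 2 had all Cre values below all control values and 1 above, against 9.22% and 8.63% of tested genes. The abundant Cst3, cystatin C, was at 465 ± 31.7 and 448 ± 15.9 CPM.

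Of 10 tested ADAM and ADAMTS genes 7 were above and 3 below control, and the median log2 fold change was 0.09. Adam8, a sheddase of myeloid cells, was at 1.43, 2.16 and 2.36 CPM in the controls and at 3.21, 6.85 and 37.9 CPM in the Cre libraries (log2 fold change 3.01 ± 0.85 (SE), adjusted p 0.209 in edgeR). It had the same order of Cre libraries as Mmp12, and its groups did not overlap. Of the 10 ADAM and ADAMTS genes 1 had all Cre values above all control values and 1 below, near the 8.63% and 9.22% of tested genes. The shedding enzymes Adam10 and Adam17 were at 299 ± 21.9 and 328 ± 34.3 CPM and at 250.5 ± 10.5 and 260 ± 5.04 CPM, and Adamts10 at 60 ± 3.46 and 54.5 ± 0.631 CPM.

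Of 5 tested clearance receptor and bridging genes 4 were above control, and the median log2 fold change was 0.09. Mfge8, whose product bridges dying cells and collagen fragments to phagocytes, was at 23.6, 17.1 and 12.2 CPM in the controls and at 20.2, 144 and 136 CPM in the Cre libraries (log2 fold change 2.51 ± 0.65 (SE), adjusted p 0.185 in edgeR). Lrp1, the endocytic receptor for several metalloproteinases, was at 3033 ± 434 and 2877 ± 248 CPM and Mrc1 at 2487 ± 17.1 and 2643 ± 23.8 CPM.

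Of 18 tested transcription factor genes 4 were above and 14 below control, and the median log2 fold change was -0.09. The AP-1 genes Fos and Junb were at 1715 ± 330 and 1622 ± 309 CPM and at 1293 ± 72.1 and 1154 ± 36.6 CPM, and Bhlhe40 at 462 ± 11.4 and 385 ± 33.5 CPM. For Junb and Bhlhe40 all Cre values lay below all control values, with adjusted p of 0.351 and 0.194 in edgeR. Of the 18 genes 4 lay below in this way and 1 above, against 9.22% and 8.63% of tested genes. Of 13 tested matrix substrate genes 11 were above and 2 below control, and the median log2 fold change was 0.23. The fibronectin gene Fn1 was at 2618 ± 115 and 2282 ± 346 CPM and the osteopontin gene Spp1 at 332 ± 47.4 and 472 ± 158 CPM, with Cre values of 347, 650 and 420.5 CPM for Spp1. The laminin chain gene Lamc1 was at 19.4 ± 1.75 and 28.3 ± 2.35 CPM (log2 fold change 0.54 ± 0.09 (SE), adjusted p 0.146 in edgeR) and the versican gene Vcan at 3.22 ± 0.961 and 1.46 ± 0.322 CPM (log2 fold change -1.14 ± 0.26 (SE), adjusted p 0.161).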

How the data were processed

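The authors deposited whole-number counts per gene, without normalization, in 1 column per library. Columns were assigned to mice by the library names in the labels. Per the submitters' processing notes, cutadapt 2.5, STAR 2.6.1, featureCounts 1.6.4 and build GRCm38 were used, with no role or order given. Annotation release and strand setting are not stated there. Coordinates and exon lengths came from GENCODE M21 (45229 of 46078 identifiers found).

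Tests used edgeR 4.0.16 in R 4.3.3, with filterByExpr (minimum count 10, 15147 genes kept), TMM, estimateDisp, glmQLFit and glmQLFTest, two-sided, Benjamini-Hochberg adjustment over all tested genes, threshold 0.05, no covariate. SE is the absolute log2 fold change over the square root of F. The code was tested on simulated counts. Alternatives were DESeq2 1.42.0, limma-voom (limma 3.58.1), scaling by RLE, by upper quartiles or by library size alone, robust and newer dispersion settings, no filter, at least 5 CPM in 3 libraries, the replicate block, leaving out each library, and thresholds of 0.01 and 0.1. All 10 genes were named. Each related list gave its 2 most abundant genes and the 2 of smallest p, besides any called, and a few genes so named are left out here. The genes and lists were chosen with earlier results of these data known. Libraries of a group differed by more than sampling noise (chi-square per degree of freedom 21.7 to 57.6). The labels do not say whether libraries of a group came from separate sorts, so p-values measure the spread between these samples. Floors of 3 counts and the intervals reflect counting error only, since PCR copies are not independent.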

Additional observations from a re-analysis of the deposited data

How the results depend on the processing

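The main fit called 1 gene higher, 1 lower and 0 of the 10 genes. DESeq2 called 344 higher and 217 lower and 5 of the 10 (Mmp2, Mmp9, Mmp12, Mmp14 and Mmp19, adjusted p 0.000132 to 0.0489), and edgeR with no filter on low counts 340, 183 and 4 (Mmp2, Mmp9, Mmp12 and Mmp14, adjusted p 0.00195 to 0.024); the cause was not tested. Robust dispersions called 0 lower. Leaving out 1 library at a time gave 1 to 249 higher, 0 to 52 lower and 0 to 4 of the 10. The largest changes came without Cre replicate 1 (249 and 37), control replicate 3 (15 and 52), Cre replicate 2 (8 and 1) and control replicate 2 (1 and 0). Over all alternatives the adjusted p was 0.000132 to 0.468 for Mmp12 and 0.000115 to 0.483 for Mmp14.

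With the replicate number as a block 8 genes were called higher and 2 lower, and 0 of the 10. The same-numbered libraries share only a number: their deviations correlated at -0.01, -0.156 and 0.069, and not every library correlated best with its own number.

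Timp2 had the opposite sign without control replicate 1 (0.073) and when Cre replicate 3 was left out (0.0020), within -0.38 to 0.073 over single libraries left out. Timp3 had it without Cre replicate 1 (-0.34), within -0.34 to 0.398. The other 7 tested genes kept their sign under every alternative that tested them. Mmp13, at 2 to 64 counts, is limited by depth.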

Other observations

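Some family genes below the filter had counts in single libraries. Mmp28, an enzyme known from epithelia and macrophages, had 7, 7 and 8 counts in the controls and 26, 11 and 8 in Cre libraries 1, 2 and 3. Cre library 1, which also had the highest Timp3, thus held the most. In CPM all Cre values of Mmp28 lay above all control values, at 0.149 to 0.44 against 0.116 to 0.141 CPM. Control library 3 and Cre library 3 both held 8 counts. Mmp3, stromelysin 1, had 9, 9 and 5 counts in the controls and 14, 6 and 14 in the Cre libraries. Mmp27 had 2 counts in each of Cre libraries 2 and 3 and 0 elsewhere, and Mmp10 had 0 to 6 counts in all libraries. Mmp10, Mmp3 and Mmp27 lie in the chromosome 9 cluster between Mmp12 and Mmp20, in which Mmp12 and Mmp8 were the only genes that passed the filter.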
